A study of Mus musculus with 12 samples.

Results

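The Mir-8 family is the MirGeneDB name for the miR-200 family, a group of microRNAs known from epithelial cells. Its members were taken by name, as every row whose leading name is Mir-8, with all arms kept. This gave 7 of the 513 miRNA arms in the deposited table, and all 7 were among the 474 arms tested, those with a mean of at least 10 normalized counts. They are the guide (3p) arms of 5 precursors, Mir-8-P1a (miR-200a), Mir-8-P1b (miR-141), Mir-8-P2a (miR-200b), Mir-8-P2b (miR-200c) and Mir-8-P3a (miR-429), and the passenger (5p*) arms of Mir-8-P1a and Mir-8-P2a. The miR names come from general knowledge of MirGeneDB naming. Small RNA was sequenced from hippocampus of 12 wild-type male C57BL/6J mice, 1 library per mouse. The exercised lineage held 6 F2 mice whose F0 grandfathers, on the paternal side, had exercised, and the sedentary lineage held 6 F2 mice whose F0 grandfathers had stayed sedentary. The labels give no age, and the grandsons' own housing is not described in the sources used here. The contrast asks whether exercise of the grandfather is reflected in the miRNAs of the grandson's hippocampus.

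MicroRNAs of this family keep epithelial cells epithelial: they bind the messenger RNAs of the transcriptional repressors Zeb1 and Zeb2 and lower their output, which leaves the adhesion gene E-cadherin active. ZEB proteins in turn repress the genes of the family through E-box motifs, so the pair forms a double-negative loop. In mouse nervous tissue the family is best known from the olfactory system, where it takes part in the maturation of olfactory neurons.

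A miRNA finds its targets mainly through its seed, bases 2 to 8, and the guide arms carry 2 seeds that differ at a single base. Their RefSeq sequences (GRCm38.p6), with the seed in capitals, are shown because the seed decides which arms share targets.
Mir-8-P1a_3p (miR-200a-3p): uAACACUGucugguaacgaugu
Mir-8-P1b_3p (miR-141-3p): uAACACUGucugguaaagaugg
Mir-8-P2a_3p (miR-200b-3p): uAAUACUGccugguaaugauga
Mir-8-P2b_3p (miR-200c-3p): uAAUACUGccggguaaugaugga
Mir-8-P3a_3p (miR-429-3p): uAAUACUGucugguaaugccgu
Counting from the 5′ end, miR-200a-3p and miR-200b-3p differ within the seed at C4U. The miR-141 guide differs from that of miR-200a at C17A and U22G, both outside the seed, and the miR-200c guide differs from that of miR-200b at U11G and A22G over the first 22 bases. The authors' handling of reads that match several paralogues is not given in the sources used here, so levels within each pair carry that limit.

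The passenger arms, taken from the other strand of the hairpin, carry a different seed that both share.
Mir-8-P1a_5p* (miR-200a-5p): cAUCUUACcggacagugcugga
Mir-8-P2a_5p* (miR-200b-5p): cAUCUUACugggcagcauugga
The hairpin of Mir200a, at chr4:156054896-156054985 on the minus strand of GRCm38.p6, is shown with both arms in capitals, since the ratio of its arms is used further on.
Mir200a hairpin: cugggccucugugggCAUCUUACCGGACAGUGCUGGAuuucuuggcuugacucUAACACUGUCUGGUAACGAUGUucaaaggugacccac

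The 5 precursors lie in 2 places in the mouse genome. Mir200b, Mir200a and Mir429 lie on the minus strand of chromosome 4 within 1846 bases. In GENCODE M21, Mir200a and Mir200b fall in introns of the noncoding gene Gm13648 and Mir429 in an exon of it, and all of them also lie in an intron of Ttll10. Mir141 (chr6:124717914-124717985) and Mir200c (chr6:124718322-124718390) lie on the minus strand of chromosome 6 within 477 bases, in an intron of the antisense gene Gm15884. The RefSeq promoter window of Gm13648, 250 bases before to 50 bases after its start (chr4:156059753-156060052, minus strand, GRCm38.p6), is shown because that gene spans the chromosome 4 cluster.
Gm13648 promoter: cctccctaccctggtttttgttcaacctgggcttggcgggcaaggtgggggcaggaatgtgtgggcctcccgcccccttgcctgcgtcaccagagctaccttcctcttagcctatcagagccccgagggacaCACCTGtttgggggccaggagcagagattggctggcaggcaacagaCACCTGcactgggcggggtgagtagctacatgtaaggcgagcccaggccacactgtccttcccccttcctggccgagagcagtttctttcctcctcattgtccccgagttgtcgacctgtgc
The capitals mark CACCTG, the E-box form known to be bound by ZEB proteins; it was searched on both strands, as CACCTG and CAGGTG, which do not overlap each other here. The window holds 2 matches. Of 32851 promoter windows of that length, 20.2% hold 1 or more matches and 2.88% hold 2 or more. A match is a description of the letters, and binding was not measured.

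The libraries held between 6862623 and 10219856 reads in the table, and their profiles correlated with each other at Pearson's r of 0.960 to 0.989 on the log2 scale. Neural identity was checked with neuronal miRNAs: by mean level Mir-9 5p ranked 1, Mir-128 3p 2, Mir-124 3p 37, Mir-132-P1_3p 60 and Mir-138 5p 71. These ranks cannot tell hippocampus from other brain regions. The library codes fall into 4 sets of 3 mice, each set within 1 lineage; what a set stands for is not described, and set and lineage cannot be told apart.

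The family was a minor component of the hippocampal miRNA pool and was very uneven between mice. The 7 arms summed to 3419.8, 5946, 3861, 6301, 5147 and 4058 normalized counts in exercised-lineage mice 1 to 6, against 3103, 5929, 3582, 2646, 25411 and 2387 in sedentary-lineage mice 1 to 6. Sedentary-lineage mouse 5 stood 6.58 times above the median of the other 11 libraries, and among those 11 the highest sum was 2.64 times the lowest. As a share of all reads in the table, the family took 0.0467% to 0.0763% in the exercised lineage. It took 0.0267% to 0.0723% in 5 sedentary-lineage mice and 0.307% in mouse 5 (95% Wilson interval 0.303% to 0.310%, from 30851 reads). The intervals cover counting error only. In bulk tissue, more cells of a type and more RNA per cell cannot be told apart.

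**Figure D1:**
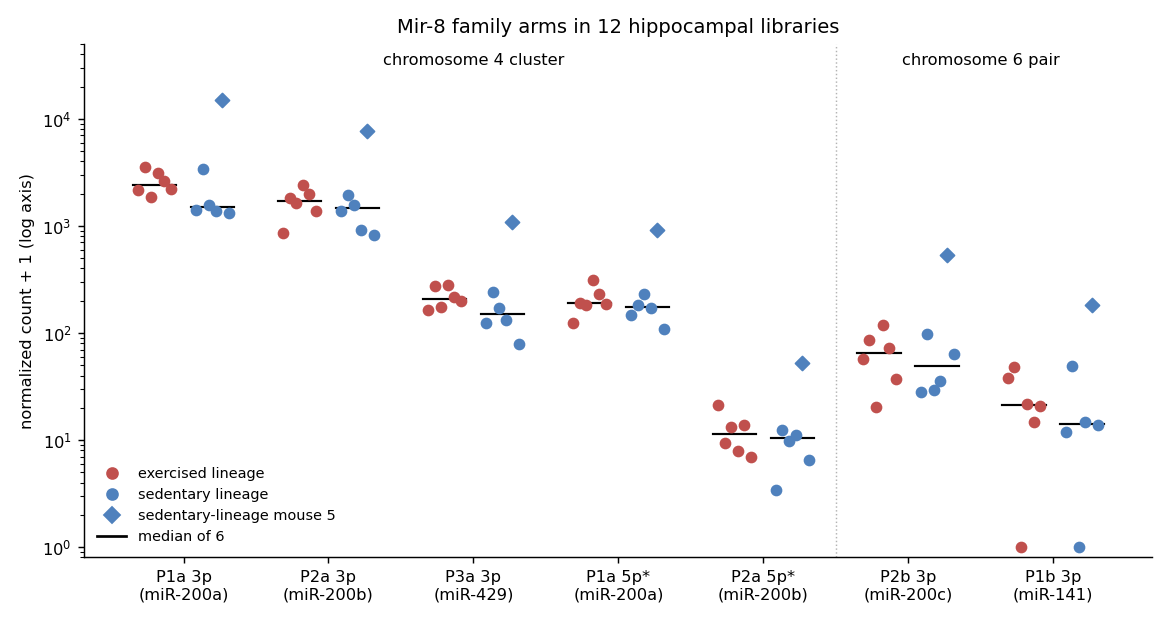
Normalized counts, with 1 added, of the 7 Mir-8 arms on a log axis, exercised lineage left of sedentary lineage, 1 point per mouse, a diamond for sedentary-lineage mouse 5 and a bar for the median of 6. Sedentary-lineage mouse 5 is the highest library for every arm, and the remaining libraries of both lineages overlap.

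The chromosome 4 guide arms made up most of the family. Mir-8-P1a_3p (miR-200a) had a lowest, median and highest value of 1847, 2423 and 3537 normalized counts in the exercised lineage, against 1304, 1496 and 14946 in the sedentary lineage. Mir-8-P2a_3p (miR-200b) had 865, 1719 and 2428 in the exercised lineage, against 816, 1475 and 7695 in the sedentary lineage. Mir-8-P3a_3p (miR-429), which shares its seed with miR-200b and miR-200c, had 163, 207 and 279.9 in the exercised lineage, against 78.0, 149 and 1089.7 in the sedentary lineage. For each of these arms the sedentary maximum was mouse 5, and the next highest sedentary values, 3408, 1941 and 242 for miR-200a, miR-200b and miR-429, lay within the exercised range. By mean level these arms ranked 108, 128 and 253 among the 474 arms tested.

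The passenger arms, which are usually degraded after the guide is loaded, were lower than the guide of the same hairpin in every library. Mir-8-P1a_5p* had 124, 188 and 310.0 normalized counts as its lowest, median and highest value in the exercised lineage, against 108, 175 and 916 in the sedentary lineage. Mir-8-P2a_5p* had 5.98, 10.3 and 20.4 in the exercised lineage, against 2.44, 9.35 and 51.1 in the sedentary lineage. That arm rests on 2 to 22 reads in 11 libraries and on 62 in sedentary-lineage mouse 5. It passed the minimum mean of 10 only through that mouse, since its mean over the other 11 libraries was 9.48.

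The chromosome 6 pair was low in most libraries. Mir-8-P2b_3p (miR-200c) had 19.4, 63.3 and 119 normalized counts as its lowest, median and highest value in the exercised lineage, against 26.8, 48.6 and 534 in the sedentary lineage. Mir-8-P1b_3p (miR-141) had 37.0, 47.2, 0, 20.5, 13.8 and 19.9 in exercised-lineage mice 1 to 6, against 10.96, 48.2, 0, 13.7, 180.4 and 12.7 in sedentary-lineage mice 1 to 6. It was listed at 0 in mouse 3 of each lineage, where the median of its other libraries would have been 24.7 reads in the exercised-lineage mouse and 16.1 reads in the sedentary-lineage mouse. Both members of the pair were highest in sedentary-lineage mouse 5, where miR-141 rested on 219 reads and miR-200c on 648.

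In sedentary-lineage mouse 5 every member of the family was high, and few other miRNAs were. Each of the 474 arms was set against its median in the other 11 libraries, as a ratio of values with 1 added. The 10 highest ratios belonged to the 3 arms of the Mir-96 family and the 7 arms of Mir-8, among them Mir-8-P2a_5p*, which was tested only through its value in this mouse. With the minimum mean taken over the other 11 libraries, the 9 highest were the same 3 Mir-96 arms and the 6 other Mir-8 arms. With no minimum, Mir-1247_3p* came in at rank 8, with a ratio of 5.81, and Mir-8-P2a_3p moved to rank 11. Mir-96 comprises miR-96, miR-182 and miR-183, a cluster known from hair cells and photoreceptors. Within Mir-8 the ratio was 12.3 for Mir-8-P1b_3p, 9.46 for Mir-8-P2b_3p, 6.93 for Mir-8-P1a_3p and 6.20 for Mir-8-P3a_3p. It was 5.38 for Mir-8-P2a_5p*, 5.00 for Mir-8-P1a_5p* and 4.91 for Mir-8-P2a_3p. The next tested arm, Mir-1955_3p*, was at 3.34. In the other libraries, each set against the remaining 11, 0 to 10 arms reached a ratio of 3, with at most 1 Mir-8 arm and no Mir-96 arm among them. Lesser ratios also placed these families high elsewhere: the 10 highest arms held all 3 Mir-96 arms in exercised-lineage mice 2 and 5, with 1 Mir-8 arm in mouse 2 and 0 in mouse 5. They held 2 Mir-96 arms and 1 Mir-8 arm in exercised-lineage mouse 4. These ratios describe a single mouse, carry no replicate check and were given no test.

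**Figure D2:**
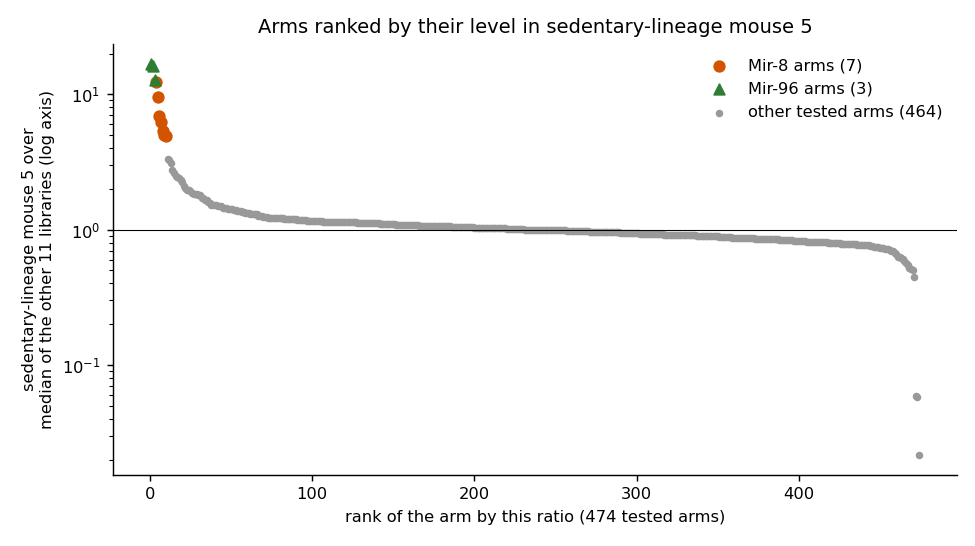
Ratio of each tested arm in sedentary-lineage mouse 5 to its median in the other 11 libraries, ranked, on a log axis, with Mir-8 and Mir-96 arms coloured. The 3 Mir-96 arms and 7 Mir-8 arms hold the 10 highest places, between 4.91 and 16.9, and the next arm is at 3.34; Mir-8-P2a_5p* was tested only through its value in this mouse.

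Markers of other cell types were summed in the same libraries. The Mir-96 sum was 13827 normalized counts in sedentary-lineage mouse 5, which is 16.6 times the median of the other 11, whose range was 508 to 1994. The other epithelial miRNAs (Mir-192, Mir-194, Mir-203, Mir-205, Mir-31 and Mir-375, 9 rows) stood at 1.00 times that median in mouse 5. Most of that sum is Mir-192-P1_5p, with 12805 normalized counts in mouse 5 against a median of 12823, so the sum says little of the other rows. Mir-203 was at 1109 in mouse 5 against 1111, and Mir-194 5p at 1130.1 against 1416. Mir-375_3p was at 1335 against 1176, Mir-31_5p at 212 against 160 and Mir-192-P2_5p at 43.7 against 30.9, each within the range of the other libraries. Mir-205-P1_5p was at 4.94 against 4.99. Of 12 marker lists, 2 lay above their range in the other 11 libraries in mouse 5, the Mir-96 cluster and muscle (1.83 times the median), 10 lay within it and 0 below it. Most of the muscle sum is Mir-1-P1_3p with its identical paralogue, at 7282 in mouse 5 against a median of 3949. In the same list Mir-1-P3_3p was at 158 against 60.1 and Mir-133 3p at 89.0 against 42.0, while Mir-499_5p was at 152 against 163. The choroid plexus and ependyma list was at 2.20 times its median in mouse 5, within a range of 46015 to 203190 normalized counts in the other libraries. In its own code set, mouse 5 was at 138693, beside 46015 and 46100 in sedentary-lineage mice 4 and 6. Higher sums came from exercised-lineage mice 1 (178406) and 3 (203190) and sedentary-lineage mice 1 (197257) and 2 (199660). The neuron list was at 0.98 times its median in sedentary-lineage mouse 5. Most of the neuron sum is Mir-9 5p, at 2.088e+06 in mouse 5 against 2.132e+06, so it says little of the other rows. Those went both ways: Mir-124 3p was at 32177 against 36899, and Mir-132-P1_3p at 14202 against 12289. The part of any of these sources in the result was not tested.

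**Figure D3:**
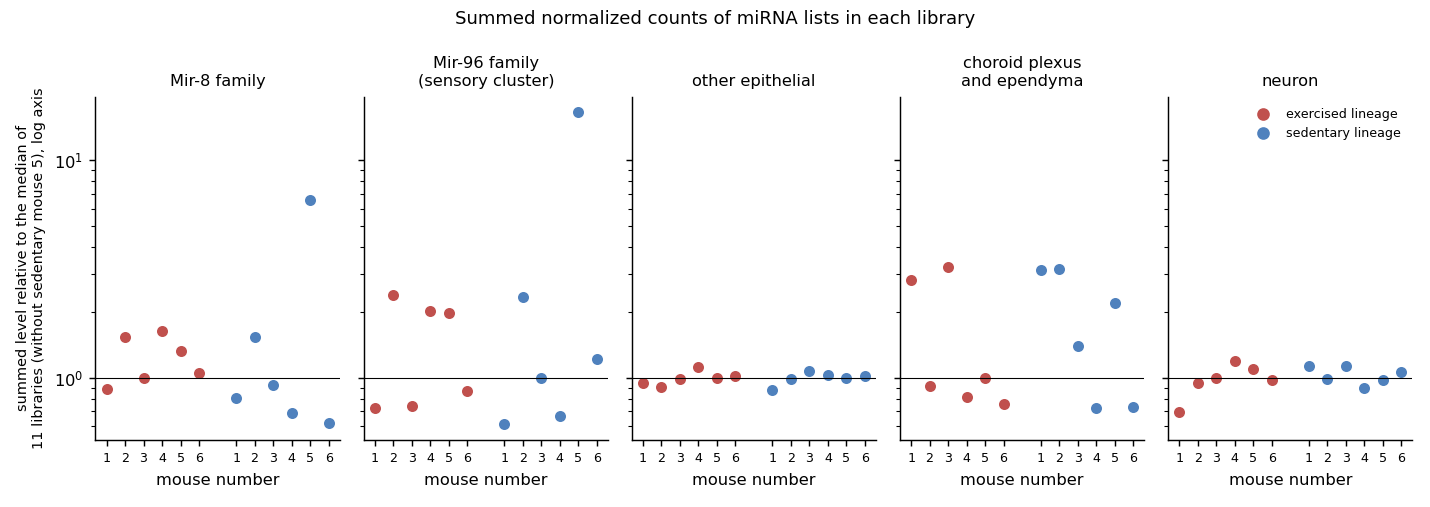
Summed level of Mir-8 and of marker lists in each library relative to the list's median over the 11 libraries other than sedentary-lineage mouse 5, on a log axis, exercised lineage left of sedentary lineage. Mouse 5 reaches 6.58 for Mir-8 and 16.6 for the Mir-96 cluster, and 1.00 for the other epithelial list.

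Mir-8 and Mir-96 also varied together in the remaining mice. Over 12 libraries the log2 levels of miR-96, miR-182 and miR-183 correlated with the Mir-8 sum at Pearson's r of 0.95, 0.94 and 0.93 (Spearman's rho 0.91, 0.77 and 0.76). They were the 3 arms of 467 outside the family with r of 0.9 or more. Without sedentary-lineage mouse 5 the values were 0.86, 0.82 and 0.74, and without the 2 libraries farthest from the median of the sum, sedentary-lineage mice 5 and 6, they were 0.93, 0.95 and 0.91. The next 5 arms by likeness were Mir-490_3p (r 0.75), Mir-1251_5p (0.61), Mir-135-P1_5p with its identical paralogue (0.60), Mir-15-P1b_5p (0.59) and Mir-135-P2_3p (0.59). By rank Mir-490_3p was as like the sum as miR-182, with Spearman's rho of 0.77 over 12 libraries. Its r was 0.69 without mouse 5 and 0.54 without the 2 farthest libraries. Mir-1251_5p and Mir-135-P2_3p rest on mouse 5, with r of 0.01 and 0.09 without it. The points share a library and its size factor, so these values are descriptions and carry no p. Across the other 11 marker lists, r with the Mir-8 sum lay between -0.14 and 0.53 over 12 libraries and between -0.39 and 0.23 without mouse 5.

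The Mir-96 guides, shown for comparison with the seed in capitals, share no seed with any Mir-8 arm.
Mir-96-P1_5p (miR-96-5p): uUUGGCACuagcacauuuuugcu
Mir-96-P2_5p (miR-182-5p): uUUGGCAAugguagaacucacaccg
Mir-96-P3_5p (miR-183-5p): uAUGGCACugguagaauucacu
Their genes span 3820 bases on the minus strand of chromosome 6, outside any annotated gene, and lie 94548177 bases from the Mir141 and Mir200c pair.

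Within the family, the guides of the chromosome 4 cluster varied together. Without sedentary-lineage mouse 5, r was 0.91 between Mir-8-P1a_3p and Mir-8-P3a_3p, 0.83 between Mir-8-P2a_3p and Mir-8-P3a_3p and 0.71 between Mir-8-P1a_3p and Mir-8-P2a_3p. The chromosome 6 guides Mir-8-P1b_3p and Mir-8-P2b_3p correlated at 0.73, but pairs across the clusters ranged widely: Mir-8-P1a_3p correlated at 0.72 with Mir-8-P2b_3p and at 0.52 with Mir-8-P1b_3p, while Mir-8-P1b_3p correlated with Mir-8-P2a_3p at -0.04. Over all 21 pairs of arms the median r was 0.75 with 12 libraries and 0.35 without mouse 5. The chromosome 6 guides also had the fewest reads of the guides, and the part of low counts in these values was not tested.

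The proportions of the arms differed between the lineages by less than their spread between mice. The ratio of Mir-8-P1a_3p to Mir-8-P2a_3p was 1.63 ± 0.51 in the exercised lineage, against 1.47 ± 0.38 in the sedentary lineage (SD, n = 6 each). The chromosome 6 pair supplied 1.78 ± 0.78% of the family sum in the exercised lineage, against 2.04 ± 0.92% in the sedentary lineage. Arms with the AACACUG seed, those of miR-200a and miR-141, made up 57.4 ± 6.3% of the guide counts in the exercised lineage, against 55.3 ± 6.2% in the sedentary lineage. These differences were smaller than the SD within either lineage. The guide to passenger ratio of Mir-8-P1a was 13.3 ± 3.78 in the exercised lineage, against 11.98 ± 4.68 in the sedentary lineage. In sedentary-lineage mouse 5 it was 16.3, within the range of the other libraries, and the chromosome 6 share was 2.81%, also within their range. Both proportions in mouse 5 were thus inside the range of the other mice, at a family level outside theirs.

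**Figure D4:**
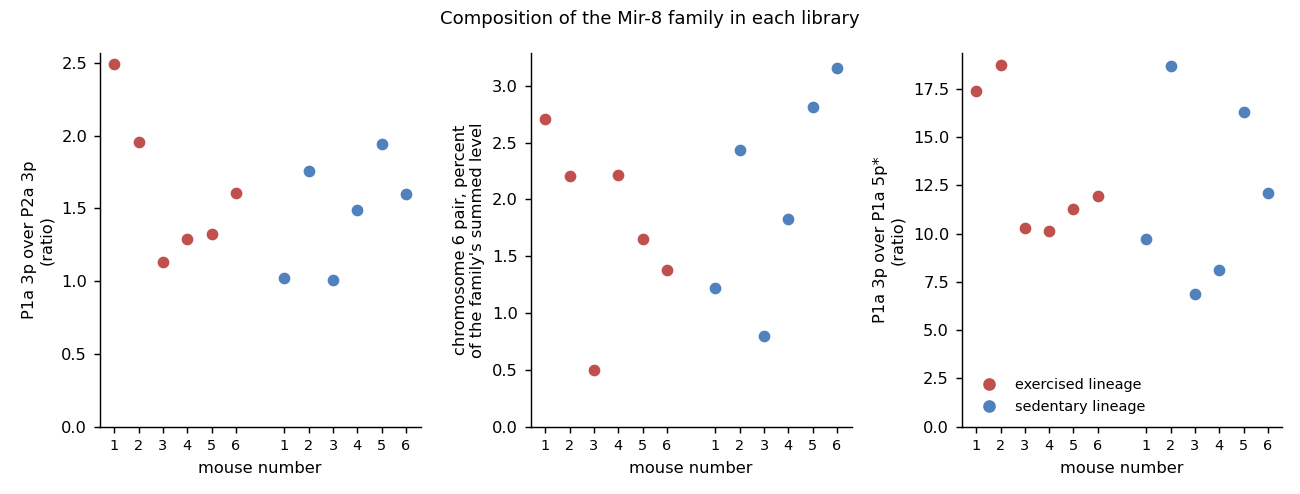
Proportions within the Mir-8 family in each library, exercised lineage left of sedentary lineage, 1 point per mouse. The ratio of miR-200a to miR-200b guides lies between 1.01 and 2.49 and the lineages overlap in every panel.

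No difference between the lineages was detected for any Mir-8 arm. With limma on log2(value + 1), 0 of 7 arms passed an adjusted p of 0.05, against 0 of 474 arms over the table (0%), where the lowest adjusted p was 0.532. Before adjustment limma put 34 of the 474 arms, and 0 of the 7, under a p of 0.05. No Mir-8 arm separated the lineages without overlap, and no other tested arm did either (0 of 474, 0%). The log2 differences, exercised minus sedentary lineage, were 0.06 for Mir-8-P1a_3p (SE 0.51, adjusted p = 0.979), 0.12 for Mir-8-P3a_3p (SE 0.49, adjusted p = 0.960) and -0.09 for Mir-8-P2a_3p (SE 0.46, adjusted p = 0.974). They were -0.14 for Mir-8-P1a_5p*, 0.07 for Mir-8-P2a_5p*, -0.27 for Mir-8-P2b_3p and -0.14 for Mir-8-P1b_3p, with adjusted p between 0.924 and 0.979. Thus 3 of 7 arms lay above 0 and 4 below, with a median of -0.09, beside 236 of 474 above 0 and a median of -0.00 over all arms tested. The 95% interval for Mir-8-P1a_3p ran from -1.05 to 1.16, so differences inside it could not be told from 0. The median interval width was 2.21 over the family and 0.687 over all arms.

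The sign of 4 of these values, and the width of the intervals, changed without sedentary-lineage mouse 5. The interval of Mir-8-P1b_3p, which was listed at 0 in 2 libraries, stayed wide. It ran from -2.63 to 2.36 over 12 libraries and from -1.78 to 2.89 without mouse 5. The summed family averaged 4789 ± 1185 normalized counts in the exercised lineage (SD, n = 6), against 7176 ± 9023 in the sedentary lineage (SD, n = 6). The sedentary mean was 3529 ± 1417 (SD, n = 5) without that mouse. With it left out, all 7 arms lay above 0, beside 239 of 474 over all arms, and the 7 are not independent of each other. Their median was 0.52 against 0.00 over all arms, their median interval width was 1.19, and 0 of 474 arms passed. With the minimum mean also taken over the other 11 libraries, Mir-8-P2a_5p* was no longer tested. The 6 arms that remained lay above 0, with a median of 0.45, and 0 of 474 arms passed. Mouse 5 was singled out on these same values, as the highest library for every Mir-8 arm. Leaving it out therefore raises every difference and lowers the spread of the sedentary lineage. The direction and the p values without it are descriptions, not support for a difference. Before adjustment limma put 2 of the 7 arms, beside 28 of all 474, under a p of 0.05 without mouse 5. Mir-8-P3a_3p then differed by 0.62 on the log2 scale (SE 0.25, 95% interval 0.07 to 1.16) at an unadjusted p of 0.0300 and an adjusted p of 0.591 by limma. Mir-8-P1a_3p then differed by 0.58 (SE 0.25, 95% interval 0.04 to 1.12) at an unadjusted p of 0.0368 and an adjusted p of 0.591 by limma. Both arms lay above the sedentary median in 6 of 6 exercised-lineage mice, with or without mouse 5, as did 45 of the 474 arms (9.49%) with it and 47 (9.92%) without it. The other 5 Mir-8 arms did so in 3 to 5 of 6 mice. For the Mir-96 arms, the median log2 difference was -0.30 over 12 libraries and 0.36 without mouse 5, with 0 of 3 passing.

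**Figure D5:**
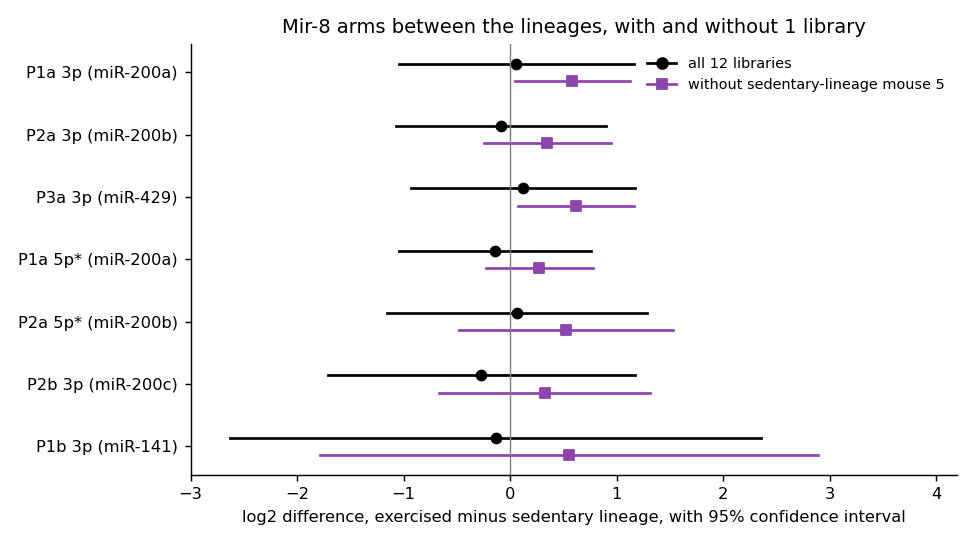
Log2 difference of each Mir-8 arm, exercised minus sedentary lineage, with 95% confidence intervals from limma, for all 12 libraries and without sedentary-lineage mouse 5. With all libraries every interval spans 0 and 3 of 7 arms lie above it. Without that mouse all 7 lie above 0, and the unadjusted intervals of the miR-200a and miR-429 guides no longer span it. That mouse was the highest library for every arm, so leaving it out raises every difference.

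The sets of library codes varied as well. The family sum had a lowest, median and highest value of 3419.8, 3861 and 5946 normalized counts in the set coded R31 and 4058, 5147 and 6301 in R41, both exercised lineage. It had 3103, 3582 and 5929 in S11 and 2387, 2646 and 25411 in S41, both sedentary lineage. The sets overlapped, and S41 held both the highest and the lowest library of the study.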

How the data were processed

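Small RNA libraries were made with the NEBNext Multiplex Small RNA set, per the labels' protocols. Bowtie 1.3.0, the mm10 build and DESeq2 are named per the submitters' processing notes. The settings for adapter trimming, mismatches, multi-mapping and any row filter were not given in the sources used here. Deposited values are a signal: normalized counts, not whole, that behave as reads divided by 1 size factor per library (dividing by each library's step gave whole numbers within 0.01), although the column headers call them raw. The steps gave the depths. Replicates are separate mice, per the labels.

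The 474 of 513 arms whose mean over the 12 libraries reached 10 were fitted with limma 3.58.1 in R 4.3.3 on log2(value + 1), with a mean-variance trend and Benjamini-Hochberg adjustment, without covariates. A fold on this scale understates the change of low arms. All Mir-8 rows were named, plus the 8 outside arms with the highest Pearson correlation with the family sum. Members and marker lists were chosen with earlier results of these data known. The choroid list took both paralogues of Mir-34-P2, a match corrected after its values were seen. Alternatives changed the pseudocount, filter, scaling, library weights, replicate block and libraries or code sets left out; leaving out libraries for the family sum and the 2 farthest for the correlation, ratios without a filter, and the filter on 11 libraries were chosen after seeing the data.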

Additional observations from a re-analysis of the deposited data

Results flagged for a closer look

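In groups of 6 mice, a library was taken as standing apart when its gap to the nearest value, divided by the group's range, exceeded Dixon's 95% critical value. The gaps were taken on normalized counts, or on the arm ratios themselves, not on log2 values. On a log2 scale a single high value stands less far apart, and that scale was not examined. Of 48 groups examined, 13 passed. Chance flags about 1 in 20 groups only where values are normally spread and independent. The Mir-8 and Mir-96 arms are not independent of each other, so the 13 were not set against that rate. On the scale of normalized counts, mouse 5 of the sedentary lineage stood apart for the family sum (0.846) and for every arm. The values were 0.846 for Mir-8-P1a_3p, 0.850 for Mir-8-P1a_5p*, 0.733 for Mir-8-P1b_3p and 0.836 for Mir-8-P2a_3p. They were 0.818 for Mir-8-P2a_5p*, 0.863 for Mir-8-P2b_3p and 0.838 for Mir-8-P3a_3p. The same mouse stood apart for miR-96 (0.896), miR-182 (0.875) and miR-183 (0.904), and for Mir-1251_5p (0.723). Mir-8-P2a_5p* was tested only through its value in mouse 5. The Mir-96 arms and Mir-1251_5p are among the arms picked for correlation with the Mir-8 sum, over libraries that include mouse 5. Their flags are thus not separate support. Sedentary-lineage mouse 1 stood apart for the guide to passenger ratio of Mir-8-P2a (0.814), which was 568 there and rests on 2 passenger reads.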

How the results depend on the processing

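In all 27 alternatives 0 arms passed by limma, and 16 to 48 of the arms had an unadjusted p under 0.05. A count test was planned for files that hold whole reads. It was not run, because the deposited values are not whole and the worth of 1 read had to be inferred from their spacing. The smallest nonzero value of a library is 2 to 6 reads. At the inferred worth, 100% of the values in each library were whole within 0.01, and the read numbers given here rest on it. The mouse numbers are shared between the lineages, but same-numbered libraries did not behave as pairs. Correlations of deviations lay between -0.17 and 0.15, and 1 of 6 correlated best with its own number. With the replicate block the median fold of the family was -0.09 and 0 arms passed. That check cannot show a grouping of several numbers across the lineages. The endothelial and mural sum, 1 list picked from 12, ran from 312588 to 428104 in mice 1 to 3 of both lineages. It ran from 413563 to 724817 in mice 4 to 6. Such a grouping was not tested.

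The median fold of the family ran from -0.23 to 0.52 when libraries were left out singly, and was -0.38 without S11, where Mir-8-P1b_3p was at -1.13 and Mir-8-P2b_3p at -0.92, and 0.36 without S41. Single-library omission gave log2 ranges of -0.12 to 0.58 for Mir-8-P1a_3p, -0.34 to 0.28 for Mir-8-P1a_5p*, -0.95 to 0.65 for Mir-8-P1b_3p, -0.30 to 0.35 for Mir-8-P2a_3p, -0.26 to 0.52 for Mir-8-P2a_5p*, -0.53 to 0.33 for Mir-8-P2b_3p, -0.14 to 0.62 for Mir-8-P3a_3p and -0.76 to 0.44 for the sum. For Mir-8-P1b_3p the ends of that range came from leaving out mouse 3 of the sedentary lineage (-0.95) and mouse 3 of the exercised lineage (0.65). Those are the libraries where it was listed at 0. Outside single-library omission, reversals were small or came from omitting a code set. Mir-8-P2a_3p turned to 0.00055 (library totals), 0.00017 (totals without Mir-8), 0.058 (library weights) and 0.14 (without R31). Mir-8-P2a_5p* turned to -0.050 (pseudocount 10), -0.012 (weights), -0.24 (without R31) and -0.46 (without S11). Without R31, Mir-8-P1a_5p*, Mir-8-P1b_3p and Mir-8-P2b_3p turned to 0.14, 0.18 and 0.012, and without S41 to 0.10, 0.86 and 0.38. Mir-8-P1a_3p turned to -0.0058 without R41 and -0.24 without S11, and Mir-8-P3a_3p to -0.069 without S11. With mouse 5 of the sedentary lineage left out and the filter on the other 11 libraries, Mir-8-P1b_3p was at 0.55 and the family median at 0.45. The cause was not tested. Of the 8 arms most like the sum, 5 were shared under Spearman and 4 without the farthest or 2 farthest libraries. Without a filter, 6 Mir-8 arms held places among the 10 highest ratios.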
